A study of Mus musculus with 12 samples.

Results

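The genes described here are the laminin chains, the integrin alpha and beta chains and a set of large glycoproteins of the extracellular matrix in a mouse gastric cancer line. They were chosen by name: protein-coding genes whose symbol is that of a laminin chain (*Lama*, *Lamb*, *Lamc*), an integrin chain (*Itga*, *Itgb*), a nidogen, a thrombospondin, a fibulin or a fibrillin, and *Fn1*, *Sparc*, *Dcn*, *Tnc*, *Hspg2* and *Agrn*. This gave 41 of the 18926 genes in the count tables: 9 laminin chains, 9 integrin alpha chains, 8 integrin beta chains, 3 genes for nidogen or basement membrane proteoglycans and 12 other matrix glycoproteins. The RefSeq table of the mm10 build (GRCm38.p6) lists 50 such genes, and the other 9 (*Fbln7*, *Itga11*, *Itga4*, *Itga8*, *Itga9*, *Lama1*, *Lama2*, *Nid1* and *Thbs4*) were not analysed here.

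RNA was sequenced from S1 tumorspheres in 12 libraries, 3 each of control cells, *Nf2*-KO cells, cells labelled *Rasa1*-KO and cells labelled double-KO (*Nf2* and *Rasa1*). S1 is a line from a gastric cancer of a ChetPS mouse (*Smad4* F/F and *Trp53* F/F with *Cdh1* F/+), so all 4 groups share that origin, and all carried Cas9 from a transposon. Guides came by lentivirus and cells were selected as pools, the controls had a non-targeting guide or the plasmid backbone (which one is not stated per library), and tumorspheres are clusters grown in suspension, although the labels call the cells a monolayer. The study calls the dots of its principal component plot technical replicates, so every SD and p-value measures the spread between libraries, which may be technical.

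Laminins are trimers of 1 alpha, 1 beta and 1 gamma chain that polymerise into the sheet of the basement membrane, to which nidogen, perlecan (*Hspg2*) and agrin (*Agrn*) are bound. Integrins are cell surface receptors made of an alpha and a beta chain, and the pair decides whether a cell binds collagen, laminin or RGD proteins such as fibronectin and vitronectin. Fibulins, fibrillins, thrombospondins, tenascin and SPARC are glycoproteins of the interstitial or pericellular matrix. *Nf2* encodes Merlin, which activates the Hippo kinases and so restrains YAP, and *Rasa1* encodes a GTPase activating protein of Ras.

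The targeted genes went against the labels in part. In CPM (read counts scaled to library size with TMM factors), *Nf2* was at 58.1, 61 and 55.4 in the control libraries, 14.3, 13.2 and 13.2 in *Nf2*-KO and 11.6, 11.9 and 12.1 in labelled *Rasa1*-KO libraries, but 62.6, 57.6 and 56.4 in labelled double-KO libraries. *Rasa1* was at 60.5, 74.9 and 78.5 in control, 97.2, 101 and 97.2 in *Nf2*-KO, 34.5, 30.4 and 30.8 in labelled *Rasa1*-KO libraries and 17.7, 20.6 and 23.3 in labelled double-KO libraries, so it was below control in both of the last groups and *Nf2* in only 1 of them. The names of the deposited tables also give both labels the other way round, and the *Nf2* levels go with the names rather than with the labels. Whether the labels were exchanged was not tested on the edited sequences, and every direction below is that of the labelled libraries. Read totals were 43818139 to 96674463 per library. Control library 1 and labelled double-KO library 1 stood apart from the other libraries of their groups: *Fbn1* was at 1.17, 25.9 and 25.1 CPM in the controls and *Lama3* at 1.67, 11.5 and 13.6 in labelled double-KO libraries. Results are therefore given with and without both. None of the 122 calls on the members in the 6 tests below was lost without them. Leaving them out for such values lowers the spread and leaves fewer libraries in both groups. The share of all genes called in *Nf2*-KO against control then rose from 42.8% to 67.0%, so keeping the calls is not separate support for them. The smaller p-values without both carry the same limit.

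Markers of other cell types were looked at beside the members. The epithelial keratins *Krt8*, *Krt18* and *Krt19* were at 759 CPM or more in every library, and the 6 epithelial markers in the tables summed to between 3689 and 6448 CPM in control, 4916 and 5456 in *Nf2*-KO, 7223 and 7563 in labelled *Rasa1*-KO libraries and 6266 and 7297 in labelled double-KO libraries. Of these 6, 0 were called higher and 2 lower in *Nf2*-KO, and 3 higher and 2 lower in labelled *Rasa1*-KO libraries. The 5 mesenchymal markers in the tables (*Col1a1*, *Col1a2*, *Col3a1*, *Pdgfra*, *Pdgfrb*) summed to between 41.9 and 848 CPM in control, 6956 and 7545 in *Nf2*-KO, 2447 and 2585 in labelled *Rasa1*-KO libraries and 101 and 261 in labelled double-KO libraries, and all 5 rose in *Nf2*-KO and in labelled *Rasa1*-KO libraries. *Col1a2*, a chain of collagen I, was at 0.0212, 0.163 and 0.496 CPM in control and 133, 136 and 141 in *Nf2*-KO. *Epcam* and *Cdh1* fell in both, with *Cdh1* at 374, 483 and 546 CPM in control, 123, 109 and 98.3 in *Nf2*-KO and 148, 175 and 149 in labelled *Rasa1*-KO libraries. The summed endothelial markers stayed between 0.677 and 2.20 CPM and those of leukocytes between 6.60 and 23.9, of which *Ptprc* made up at most 0.572 CPM. Those of smooth muscle summed to between 1.69 and 5.80 CPM in control, 3.00 and 4.20 in *Nf2*-KO, 1.25 and 1.84 in labelled *Rasa1*-KO libraries and 8.81 and 17.5 in labelled double-KO libraries, where 1 of the 3 in the tables (*Acta2*) was called higher. The part of these markers in the results below was not tested, and in bulk RNA a change in the share of a cell type and a change of RNA per cell cannot be told apart.

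Of the 41 members, 28 passed the test in *Nf2*-KO against control, 18 of them higher and 10 lower (edgeR quasi-likelihood test, Benjamini-Hochberg adjusted p under 0.05 over 18053 genes), where 42.8% of all genes tested did. In the libraries labelled *Rasa1*-KO against control 28 passed as well, 14 higher and 14 lower, with a background of 41.9%. In those labelled double-KO against control 6 passed, 5 higher and 1 lower, with a background of 6.46%. The median absolute log2 fold change of the members was 1.11, 1.12 and 0.36, against 0.54, 0.52 and 0.25 over all genes. These 3 comparisons share the control libraries. The study called genes at 3-fold or more and raw p under 0.05 in DESeq2. With that rule applied to the edgeR fit here, 12, 10 and 2 members were called, where 11.4%, 9.27% and 2.03% of all genes were. That rule called 4 in labelled double-KO against labelled *Rasa1*-KO (background 5.66%) and 1 in labelled *Rasa1*-KO against *Nf2*-KO (background 1.29%). Without control 1 and labelled double-KO 1 the counts were 36, 36 and 22, with backgrounds of 67.0%, 65.9% and 29.9%. All 41 passed the filter on low counts, 34 were called in at least 1 comparison or in the departure from additivity, and *Itga3*, *Itga6*, *Itga10*, *Itgb8*, *Lamc3*, *Fbln5* and *Fbn2* were called in none with all 12 libraries fitted. With both libraries that stood apart left out, *Itga10* fell in *Nf2*-KO and in labelled *Rasa1*-KO libraries (-0.49 ± 0.12 and -0.64 ± 0.13), *Fbln5* in the first (-1.80 ± 0.51) and *Lamc3* and *Itgb8* in the second (-1.68 ± 0.43 and -0.76 ± 0.16), where *Itga6* rose (0.29 ± 0.07).

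**Figure D1:**
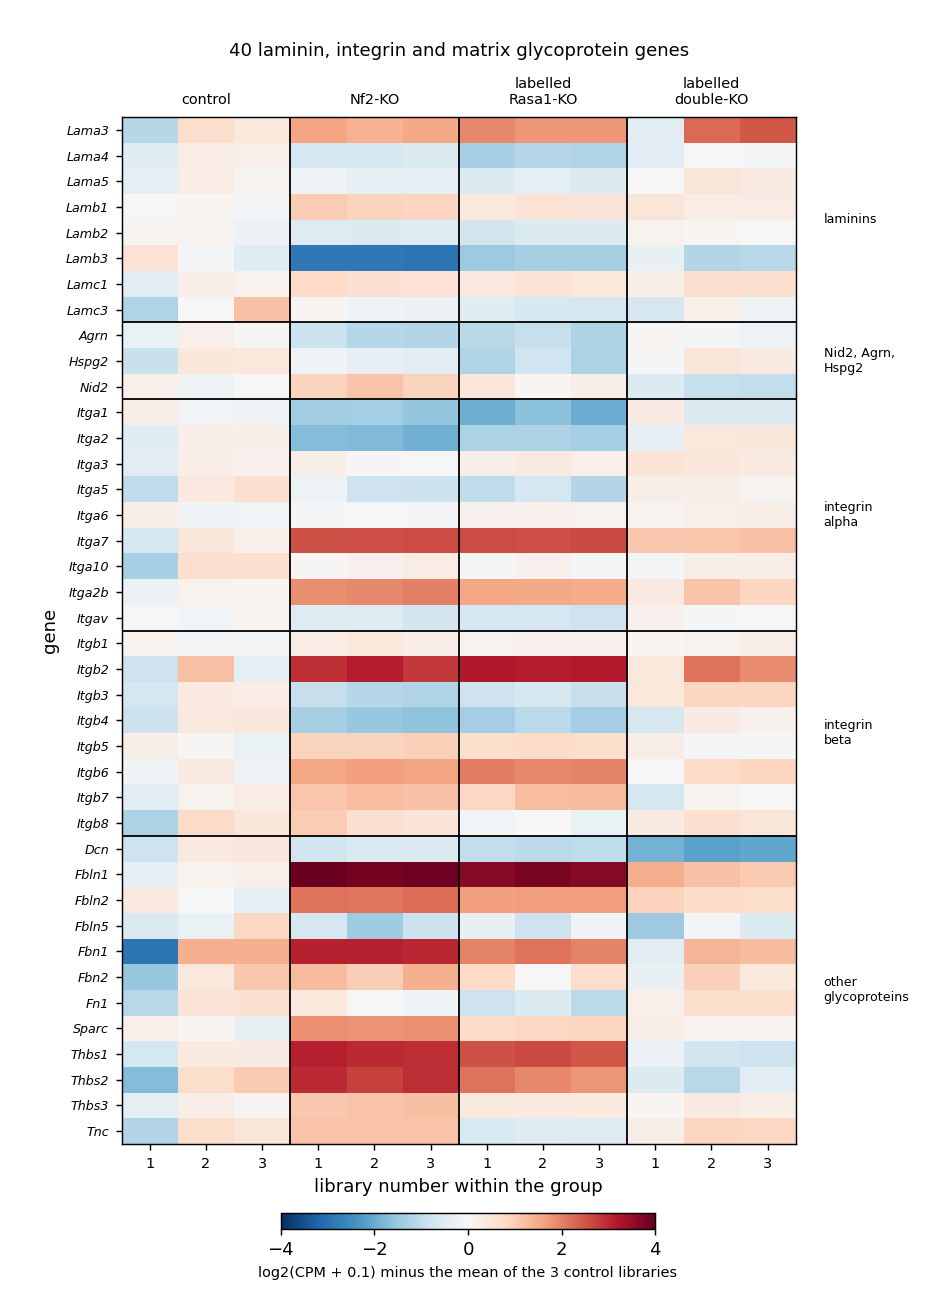
Level of 40 members in each of the 12 libraries, as log2(CPM + 0.1) minus the mean of the 3 control libraries (red higher, blue lower, scale cut at 4 in each direction), in rows by role and columns by labelled group. *Nf2*-KO and labelled *Rasa1*-KO columns carry the strongest colours, with *Fbln1* red and *Lamb3* blue, and the first control column is paler or bluer than the other controls for *Fbn1* and *Tnc*.

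**Figure D2:**
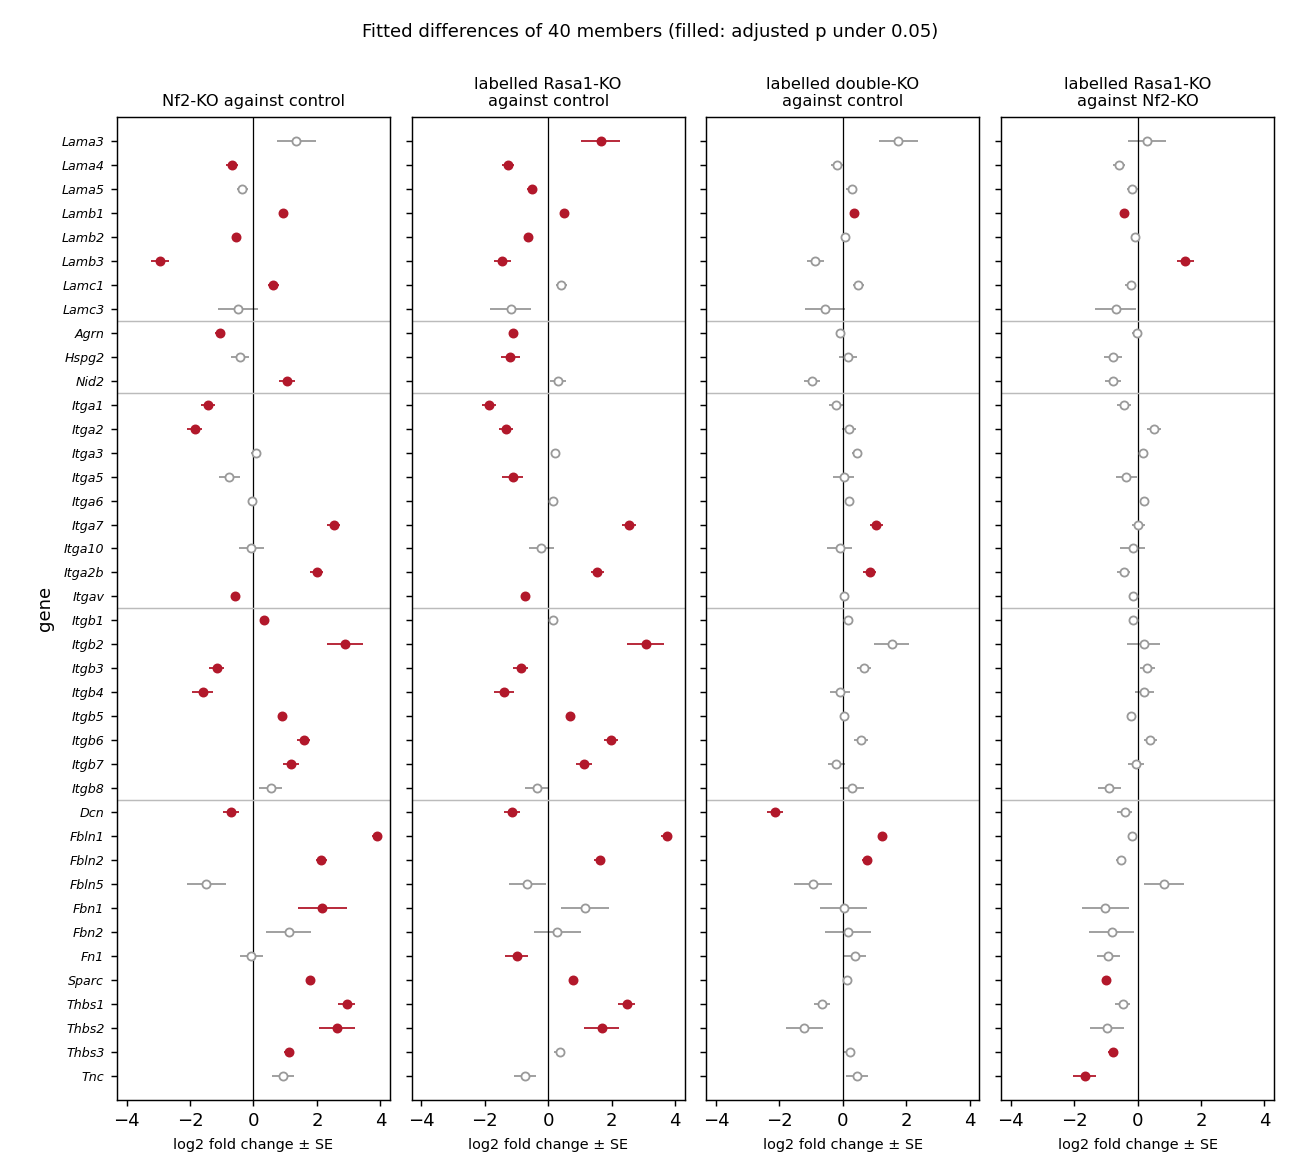
Fitted log2 fold change ± SE of 40 members in 4 comparisons (3 libraries a group), filled red where the adjusted p was under 0.05 and open grey otherwise, with lines between the roles. Filled points number 27, 27, 6 and 5 from left to right.

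The laminin chains moved in different directions. *Lamb3*, the beta chain of laminin-332, which anchors epithelial cells through integrin alpha6beta4, had 225, 141 and 107 CPM in control, 20.7, 20.8 and 19.9 in *Nf2*-KO, 54.8, 60.1 and 59.3 in labelled *Rasa1*-KO libraries and 122, 67 and 69.2 in labelled double-KO libraries. The *Nf2*-KO and the labelled *Rasa1*-KO libraries were all below every control library, and *Nf2*-KO was lowest. Its log2 fold change was -2.94 ± 0.28 (SE) in *Nf2*-KO (adjusted p = 8.99e-06, edgeR), a level 7.69-fold lower, and -1.44 ± 0.27 in labelled *Rasa1*-KO libraries (adjusted p = 0.00135). *Lama3*, the alpha chain of the same trimer, did not follow it. It was at 1.01, 3.83 and 3.17 CPM in control, 7.1, 6.31 and 6.85 in *Nf2*-KO and 9.14, 7.96 and 7.92 in labelled *Rasa1*-KO libraries, both above every control library, and passed the test only in labelled *Rasa1*-KO libraries (1.65 ± 0.62, adjusted p = 0.0491; *Nf2*-KO 1.35 ± 0.61, adjusted p = 0.0954), a call that was lost without any 1 of 10 libraries, all but labelled double-KO 1 and 3 (adjusted p up to 0.108). The difference between both comparisons was 0.30 ± 0.59 and not called.

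Promoter sequence is shown for the member that fell most in *Nf2*-KO (*Lamb3*), the member that rose most (*Fbln1*, described below) and the called integrin chain that moved least (*Itgb1*), a choice made after their values were seen. The TEAD factors, partners of YAP, recognise GGAATG, which reads CATTCC on the other strand, and these letters were searched. *Lamb3* spans chr1:193294353-193343878, *Fbln1* chr15:85205949-85286294 and *Itgb1* chr8:128685654-128733579. The windows hold the 250 bases before a transcription start in RefSeq (GRCm38.p6), 5′ to 3′, and 26 of the 41 members have at least 1 of their 33 windows in that table. The *Lamb3* window, chr1:193301744-193301993 on the plus strand, lies upstream of the first start in the table and within an intron of a longer gene model. The *Fbln1* window is chr15:85205699-85205948 and the *Itgb1* window chr8:128685404-128685653, both on the plus strand and upstream of the first exon. Capitals mark GGAATG on either strand.
*Lamb3*: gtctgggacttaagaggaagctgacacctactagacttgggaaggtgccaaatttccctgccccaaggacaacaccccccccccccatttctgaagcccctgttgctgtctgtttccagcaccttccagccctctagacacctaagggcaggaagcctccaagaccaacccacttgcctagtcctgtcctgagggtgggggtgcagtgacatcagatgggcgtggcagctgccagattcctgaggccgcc
*Fbln1*: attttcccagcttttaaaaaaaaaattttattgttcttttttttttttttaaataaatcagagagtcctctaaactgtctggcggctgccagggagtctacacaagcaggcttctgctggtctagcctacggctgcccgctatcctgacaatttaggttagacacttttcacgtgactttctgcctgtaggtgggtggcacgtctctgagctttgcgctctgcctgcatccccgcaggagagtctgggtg
*Itgb1*: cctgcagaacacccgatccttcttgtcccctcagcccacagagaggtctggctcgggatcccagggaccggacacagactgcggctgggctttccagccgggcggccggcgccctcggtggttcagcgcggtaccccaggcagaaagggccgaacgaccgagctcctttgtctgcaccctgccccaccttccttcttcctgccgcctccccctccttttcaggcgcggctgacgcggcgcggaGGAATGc
Over all 33 member windows GGAATG was found in 3 (9.09%), against 12.6% of all 32851 windows of that length, and the AP-1 letters TGANTCA in 0, against 6.75%. Beside *Itgb1*, with the match 7 bases before the start, the matches were in *Itga10*, 75 bases before its start and on the other strand, and in the window of a second *Lamb3* start, 167 bases before it and on the other strand, inside the first exon of the transcript from the earlier start. The 30 bases around each match are shown so that their flanks can be compared.
*Lamb3*, second start: gaggggaccccaCATTCCcagggagctctc
*Itga10*: caccaccactccCATTCCatccaactttat
*Itgb1*: aggcgcggctgacgcggcgcggaGGAATGc
A match describes these letters in these windows and nothing about binding of a factor. The level of *Itga10*, a collagen-binding alpha chain, was not called in any comparison with all 12 libraries.

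Among the laminin chains of the general basement membrane, *Lamb1* rose and its paralog *Lamb2* fell. *Lamb1* was at 179, 184 and 166 CPM in control, 353, 326 and 320.2 in *Nf2*-KO, 238, 261 and 251 in labelled *Rasa1*-KO libraries and 247, 217 and 215 in labelled double-KO libraries, each group above every control library. The log2 fold changes against control were 0.92 ± 0.09 (adjusted p = 1.45e-05, edgeR), 0.50 ± 0.09 (adjusted p = 0.00134) and 0.36 ± 0.09 (adjusted p = 0.0426). *Lamb2* was at 267, 269.6 and 209 CPM in control against 171, 169.8 and 172 in *Nf2*-KO and 148, 167 and 168 in labelled *Rasa1*-KO libraries, a fall of 0.54 ± 0.11 and 0.62 ± 0.11 on the log2 scale. *Lama4*, an alpha chain of vessel and mesenchymal basement membranes, fell by 0.68 ± 0.18 and 1.27 ± 0.19, from 42.1 ± 11.4 CPM (SD, n = 3) in control to 26.3 ± 1.11 and 17.5 ± 1.2. The first of these calls was lost without control 2 (adjusted p = 0.0565). *Lama5*, the main epithelial alpha chain here, was at 646, 1040.1 and 912 CPM in control and 585, 657 and 586 in labelled *Rasa1*-KO libraries, so the groups overlapped. Its call there (-0.51 ± 0.17, adjusted p = 0.0332) was lost without any 1 of 5 libraries (controls 2 and 3 and each labelled *Rasa1*-KO, adjusted p up to 0.145), and in *Nf2*-KO it was -0.35 ± 0.17 (adjusted p = 0.123). *Lamc1*, the common gamma chain, rose in *Nf2*-KO by 0.63 ± 0.17 from 179 ± 42.6 to 276 ± 22.4 CPM, and was 0.42 ± 0.17 in labelled *Rasa1*-KO libraries, where it was not called. *Lamc3* had 8 counts in its lowest library and at most 0.853 CPM, and was not called with all 12 libraries.

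Since a laminin needs 1 chain of each class, the make-up of each class was computed per library from FPKM, which allow levels of different genes to be set side by side. *Lamb3* made up 33.5% ± 6.95 (SD, n = 3) of the FPKM of the 3 beta chains in control, 5.45% ± 0.163 in *Nf2*-KO, 16.6% ± 0.0725 in labelled *Rasa1*-KO libraries and 19.6% ± 4.63 in labelled double-KO libraries. *Lamb1* went the other way, with 27.4% ± 4.05, 61.9% ± 1.19, 50.2% ± 0.706 and 36.9% ± 1.4 in the same order. It was the main beta chain of every *Nf2*-KO and every labelled *Rasa1*-KO library, and of no control or labelled double-KO library. *Lama5* made up 91.4% ± 0.655 of the alpha chains in control and between 90.8% and 93.7% over all libraries. These shares are descriptions without a test.

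**Figure D3:**
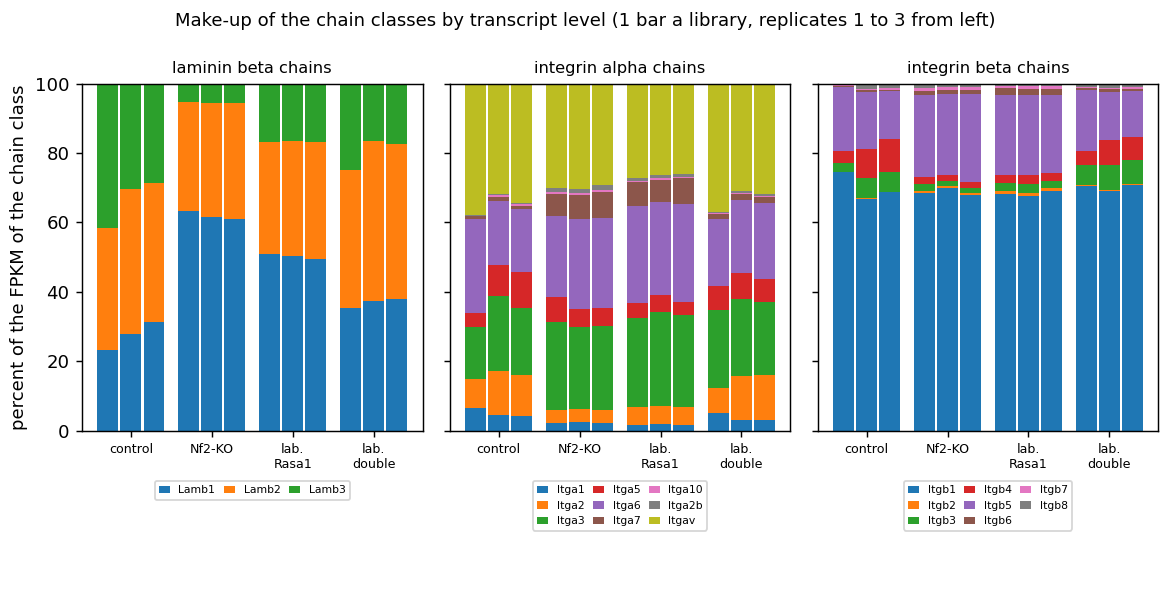
Share of each gene in the summed FPKM of its chain class (vertical axis, percent), 1 stacked bar a library in the order of the 4 labelled groups, for laminin beta, integrin alpha and integrin beta chains. The *Lamb3* part of the laminin beta bars is 33.5% ± 6.95 in control and 5.45% ± 0.163 in *Nf2*-KO (SD, n = 3), while *Itgb1* fills between 66.8% and 74.5% of every integrin beta bar.

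The 3 genes for proteins that link or fill the laminin sheet did not move together. *Agrn* (agrin, a heparan sulfate proteoglycan) was at 324, 442 and 402 CPM in control, 211, 175 and 172 in *Nf2*-KO, 178, 203 and 165 in labelled *Rasa1*-KO libraries and 405, 363 and 338 in labelled double-KO libraries. Both middle groups lay below every control library, at -1.07 ± 0.14 (adjusted p = 0.000101, edgeR) and -1.10 ± 0.14 (adjusted p = 0.000106). *Hspg2* (perlecan) was at 265, 679 and 657 CPM in control and 213, 280.1 and 205 in labelled *Rasa1*-KO libraries, where it fell by 1.20 ± 0.30 on the log2 scale although control 1 lay within their range. In *Nf2*-KO it was -0.43 ± 0.29 and not called, and without the libraries that stood apart -0.75 ± 0.13 (adjusted p = 0.000267). *Nid2*, a nidogen that bridges laminin and collagen IV, was at 0.786, 0.572 and 0.655 CPM in control and 1.33, 1.57 and 1.31 in *Nf2*-KO, a rise of 1.06 ± 0.25 (adjusted p = 0.00576) at a low level. *Nid2* had 23 counts in its lowest library and overlaps *Rtraf*, and the part of *Rtraf* reads in its values was not tested.

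Among the integrin alpha chains, the collagen receptor chains *Itga1* and *Itga2* fell and the laminin receptor *Itga7* rose. *Itga1* was at 82.3, 63.4 and 62 CPM in control, 26.2, 26.6 and 23.6 in *Nf2*-KO, 17.8, 21.8 and 17.4 in labelled *Rasa1*-KO libraries and 85.3, 47.1 and 47.4 in labelled double-KO libraries. It fell by 1.44 ± 0.22 and 1.86 ± 0.22 on the log2 scale against control in the first and second of these groups (adjusted p = 0.000278 and 6.08e-05, edgeR). *Itga2* was at 129, 218 and 215 CPM in control, 54.6, 53 and 47.6 in *Nf2*-KO and 75, 77.5 and 70.9 in labelled *Rasa1*-KO libraries, with -1.86 ± 0.23 and -1.33 ± 0.22 (adjusted p = 5.33e-05 and 0.000655). For both genes neither *Nf2*-KO nor labelled *Rasa1*-KO libraries overlapped with control. The collagen I and III genes were higher in the same libraries, as given above. *Itga1* shares its locus with *Pelo*, and whether reads of both genes were told apart in counting was not tested. *Itga7* was at 5.79, 12.4 and 10.5 CPM in control, 53.5, 54.8 and 56.6 in *Nf2*-KO, 55.8, 55.2 and 57.1 in labelled *Rasa1*-KO libraries and 19.4, 19.7 and 20.7 in labelled double-KO libraries, and every library of the 3 other groups was above every control. Its log2 fold changes were 2.52 ± 0.21, 2.55 ± 0.21 and 1.06 ± 0.21 (adjusted p = 3.47e-06, 5.16e-06 and 0.0111). The other laminin-binding alpha chains, *Itga3* and *Itga6*, were higher in level per length (FPKM, given below) and were not called in any comparison of all 12 libraries: *Itga6* was at 348, 264 and 271 CPM in control and 278, 294 and 276 in *Nf2*-KO (-0.06 ± 0.11), and *Itga3* at 157, 254 and 237 and 246, 219 and 214 (0.07 ± 0.16).

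Of the alpha chains that bind RGD proteins, *Itgav* was at 702, 661 and 761 CPM in control, 492, 490.0 and 429 in *Nf2*-KO and 432, 445 and 398 in labelled *Rasa1*-KO libraries. It fell by 0.59 ± 0.11 and 0.74 ± 0.11 on the log2 scale (adjusted p = 0.00093 and 0.000243, edgeR) without overlap. *Itga5*, the fibronectin receptor chain, was at 36.6, 97 and 116 CPM in control, 64.3, 42.1 and 40.6 in *Nf2*-KO and 36.7, 45.5 and 32.7 in labelled *Rasa1*-KO libraries, so control 1 lay within the range of the libraries labelled *Rasa1*-KO and below *Nf2*-KO. It fell in labelled *Rasa1*-KO libraries (-1.12 ± 0.34, adjusted p = 0.02), a call lost without controls 2 or 3 or labelled *Rasa1*-KO 1 or 3 (adjusted p up to 0.0803), and was -0.76 ± 0.33 in *Nf2*-KO with an adjusted p of 0.0856. Without the libraries that stood apart that value was -1.12 ± 0.18 (adjusted p = 0.000198). *Itga2b*, the chain of the platelet fibrinogen receptor, was low at 1.69, 2.22 and 2.08 CPM in control and rose to 7.52, 7.87 and 8.35 in *Nf2*-KO and 5.98, 5.8 and 5.7 in labelled *Rasa1*-KO libraries, 1.99 ± 0.20 and 1.55 ± 0.20 on the log2 scale. In the share of alpha-chain FPKM, *Itgav* held 34.7% ± 3.08 in control and 29.9% ± 0.59 in *Nf2*-KO (SD, n = 3), *Itga2* held 11.1% ± 2.28 and 3.83% ± 0.11, and *Itga7* held 0.929% ± 0.293 and 7.0% ± 0.625.

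The common beta chain *Itgb1*, partner of most alpha chains above, moved little: it was at 623, 555 and 537 CPM in control, 697, 758 and 689 in *Nf2*-KO, 636, 639.9 and 649 in labelled *Rasa1*-KO libraries and 605, 635 and 667 in labelled double-KO libraries. The rise in *Nf2*-KO was 0.32 ± 0.10 on the log2 scale (adjusted p = 0.0184, edgeR) and was lost without *Nf2*-KO 2 or control 2 (adjusted p up to 0.0798). *Itgb4*, the hemidesmosome chain that pairs with *Itga6*, was at 42.3, 102 and 107 CPM in control, 30.5, 26.7 and 25.4 in *Nf2*-KO and 30.2, 36.1 and 29.7 in labelled *Rasa1*-KO libraries. It fell by 1.60 ± 0.32 and 1.38 ± 0.32 (adjusted p = 0.00194 and 0.00502), and control 1 was nearest to the knockouts without reaching them. Its partner *Itga6* was not called in either comparison.

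The beta chains that pair with *Itgav* moved in both directions. *Itgb3* was at 31.3, 65.2 and 62.1 CPM in control and fell to 26.3, 22.7 and 22 in *Nf2*-KO (-1.16 ± 0.24, adjusted p = 0.00218, edgeR). In the libraries labelled *Rasa1*-KO it was at 28.5, 32.4 and 26.5 CPM (-0.86 ± 0.23, adjusted p = 0.0126), with control 1 inside their range, a call lost without control 2 or labelled *Rasa1*-KO 3 (adjusted p up to 0.0608). *Itgb5* rose from 118, 105 and 83.9 CPM in control to 187, 190.2 and 198 in *Nf2*-KO and 165, 168 and 164 in labelled *Rasa1*-KO libraries, 0.90 ± 0.13 and 0.69 ± 0.13 on the log2 scale. *Itgb6*, an epithelial chain known for activating latent TGF-beta, rose from 4.11, 5.98 and 4.09 CPM in control to 13.8, 14.7 and 14 in *Nf2*-KO and 19.5, 17.9 and 18.8 in labelled *Rasa1*-KO libraries, 1.58 ± 0.22 and 1.99 ± 0.22 (adjusted p = 0.000137 and 3.63e-05). In both cases all *Nf2*-KO and labelled *Rasa1*-KO libraries were above all controls, while labelled double-KO libraries (119, 98.2 and 97.8 CPM for *Itgb5*, 4.64, 7.91 and 8.52 for *Itgb6*) overlapped with control. *Itgb8* was at 2.1, 8.59 and 7.0 CPM in control and 10.3, 7.99 and 7.31 in *Nf2*-KO and was not called in any comparison of all 12 libraries.

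The leukocyte integrin chains rose from a low level. *Itgb2* was at 0.244, 1.28 and 0.377 CPM in control, 4.55, 5.27 and 4.27 in *Nf2*-KO, 5.5, 5.22 and 5.34 in labelled *Rasa1*-KO libraries and 0.711, 2.65 and 2.18 in labelled double-KO libraries, with a lowest count of 19. It rose by 2.88 ± 0.57 and 3.07 ± 0.57 on the log2 scale (adjusted p = 0.0018 and 0.00139, edgeR). *Itgb7* was at 1.64, 2.48 and 2.82 CPM in control, 4.99, 5.45 and 5.2 in *Nf2*-KO and 4.07, 5.44 and 5.53 in labelled *Rasa1*-KO libraries, a rise of 1.18 ± 0.26 and 1.12 ± 0.26. The pan-leukocyte gene *Ptprc* was at 0.149, 0.572 and 0.516 CPM in control and 0.235, 0.251 and 0.209 in *Nf2*-KO, while *Cd68* was at 5.52, 8.16 and 7.74 and 14.9, 14.1 and 14.4 and rose (1.02 ± 0.26, adjusted p = 0.00908). Of the 3 leukocyte markers in the tables (of 6), 2 were called higher in *Nf2*-KO (*Cd68* and *Csf1r*) and 0 lower. In labelled *Rasa1*-KO libraries 1 was called higher and 0 lower. The 3 summed to 6.60 to 10.2 CPM in control, 16.6 to 18.3 in *Nf2*-KO, 21.4 to 23.9 in labelled *Rasa1*-KO libraries and 8.16 to 18.2 in labelled double-KO libraries. The part of these markers in the rises of *Itgb2* and *Itgb7* was not tested. In the beta-chain FPKM, *Itgb1* held 70.0% ± 3.97 in control and 68.7% ± 1.03 in *Nf2*-KO (SD, n = 3), *Itgb5* 16.1% ± 2.23 and 24% ± 1.12, and *Itgb4* 7.13% ± 3.18 and 1.84% ± 0.205.

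*Fbln1*, *Fbln2*, *Thbs1* and *Thbs2* rose in *Nf2*-KO and in labelled *Rasa1*-KO libraries, and *Fbln1* held the largest rise of all members in both comparisons. *Fbln1*, which binds fibronectin and basement membrane proteins, was at 2.39, 3.35 and 3.53 CPM in control, 47.4, 44.3 and 46.1 in *Nf2*-KO, 39, 43.2 and 40.4 in labelled *Rasa1*-KO libraries and 8.44, 6.98 and 6.45 in labelled double-KO libraries. All 3 groups lay above every control library, and the first and second lay far above the last. The log2 fold changes were 3.90 ± 0.16 (adjusted p = 2.42e-08, edgeR; 14.9-fold), 3.73 ± 0.16 (adjusted p = 5.6e-08) and 1.25 ± 0.15 (adjusted p = 0.000892). *Fbln2*, its abundant relative, was at 421, 324 and 244 CPM in control, 1441, 1418 and 1505 in *Nf2*-KO, 994, 1026 and 1032 in labelled *Rasa1*-KO libraries and 612, 533 and 528 in labelled double-KO libraries, again with no knockout library at a control level (2.14 ± 0.17, 1.63 ± 0.17 and 0.76 ± 0.16). Its call in the libraries labelled double-KO was lost without control 2 or labelled double-KO 2 or 3 (adjusted p up to 0.0685). *Fbln5*, needed for elastic fibres, had as few as 7 counts and was not called with all 12 libraries.

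*Thbs1*, a matricellular glycoprotein that activates latent TGF-beta and binds CD36 and CD47, was at 43, 92.1 and 87.3 CPM in control, 604, 556 and 546 in *Nf2*-KO, 408, 434 and 390.3 in labelled *Rasa1*-KO libraries and 59.9, 40.9 and 39.6 in labelled double-KO libraries. It rose 7.68-fold in *Nf2*-KO (2.94 ± 0.26 on the log2 scale, adjusted p = 5.15e-06, edgeR) and 5.54-fold in labelled *Rasa1*-KO libraries (2.47 ± 0.26, adjusted p = 2.47e-05). *Thbs2*, its relative with a similar domain order, was at 0.149, 1.23 and 1.59 CPM in control, 6.37, 5.38 and 6.3 in *Nf2*-KO, 3.6, 3.02 and 2.68 in labelled *Rasa1*-KO libraries and 0.459, 0.281 and 0.502 in labelled double-KO libraries, with 14 counts in its lowest library. It rose by 2.64 ± 0.57 and 1.68 ± 0.56, and the second call was lost without control 2 or any 1 of the labelled *Rasa1*-KO libraries (adjusted p up to 0.0863). For both genes the libraries labelled double-KO lay within or below the control range. *Thbs3*, of the pentameric thrombospondins, was at 3.93, 6.26 and 5.58 CPM in control and 10.9, 11.5 and 12 in *Nf2*-KO (1.13 ± 0.16, adjusted p = 0.000212) and at 6.77, 6.73 and 6.76 in labelled *Rasa1*-KO libraries, where it was not called.

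*Sparc*, a collagen-binding matricellular glycoprotein, was at 239, 220.2 and 168 CPM in control, 731, 718 and 726 in *Nf2*-KO, 343, 367 and 372 in labelled *Rasa1*-KO libraries and 249.5, 221 and 221 in labelled double-KO libraries. It rose by 1.80 ± 0.13 and 0.79 ± 0.13 on the log2 scale (adjusted p = 9.65e-07 and 0.000467, edgeR), without overlap with the controls or between both groups. *Dcn* (decorin, a small collagen-binding proteoglycan) went down in all 3 groups: it was at 31.9, 73.6 and 76.9 CPM in control, 33.9, 38.4 and 38.4 in *Nf2*-KO, 28.6, 27.2 and 27.6 in labelled *Rasa1*-KO libraries and 15.1, 12.8 and 13.4 in labelled double-KO libraries. Its log2 fold changes were -0.72 ± 0.25, -1.13 ± 0.25 and -2.14 ± 0.26 (adjusted p = 0.0362, 0.00414 and 0.000892). Control 1 lay below every *Nf2*-KO library, and the call in *Nf2*-KO was lost without any 1 of 9 of the 12 libraries (adjusted p up to 0.137), all but control 1 and labelled double-KO 1 and 2. Without control 1 and labelled double-KO 1 it was -1.02 ± 0.08 (adjusted p = 2.98e-07).

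The values of fibronectin, fibrillin-1 and tenascin-C moved with control 1. *Fn1* (fibronectin) was at 1288, 3997 and 4232 CPM in control, 3772, 2824 and 2489 in *Nf2*-KO, 1562, 1924 and 1311 in labelled *Rasa1*-KO libraries and 3232, 4559.6 and 4593 in labelled double-KO libraries. It was -0.07 ± 0.36 in *Nf2*-KO (not called) and fell by 0.99 ± 0.37 in labelled *Rasa1*-KO libraries (adjusted p = 0.0475, edgeR), a call kept without control 1 and lost without any 1 of the other 11 libraries (adjusted p up to 0.159). Without both libraries that stood apart the values were -0.44 ± 0.17 and -1.36 ± 0.17 (adjusted p = 0.0384 and 2.17e-05). *Fbn1*, the main microfibril protein, was at 1.17, 25.9 and 25.1 CPM in control, 79.6, 79.1 and 75.7 in *Nf2*-KO and 37.3, 42.3 and 36.7 in labelled *Rasa1*-KO libraries, which were all above all controls. It rose by 2.17 ± 0.78 in *Nf2*-KO (adjusted p = 0.0408, lost without any 1 of 9 libraries, all but control 1 and labelled double-KO 1 and 3, up to 0.0803) and was 1.16 ± 0.75 in labelled *Rasa1*-KO libraries (adjusted p = 0.237). Without both libraries these were 1.62 ± 0.09 (adjusted p = 1.35e-08) and 0.61 ± 0.08 (adjusted p = 4.51e-05). *Tnc* (tenascin-C, typical of remodelled stroma) was at 53.7, 199 and 169 CPM in control, 268, 267 and 268 in *Nf2*-KO, 80.2, 87.7 and 85.5 in labelled *Rasa1*-KO libraries and 142, 219.7 and 216 in labelled double-KO libraries, higher in every *Nf2*-KO library than in any control, and passed the test in neither comparison (0.93 ± 0.35 and -0.73 ± 0.35). Without both libraries it passed in both, in opposite directions (0.55 ± 0.08 and -1.12 ± 0.08, adjusted p = 7.4e-05 and 1.81e-07). *Fbn2* had as few as 3 counts and was not called.

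**Figure D4:**
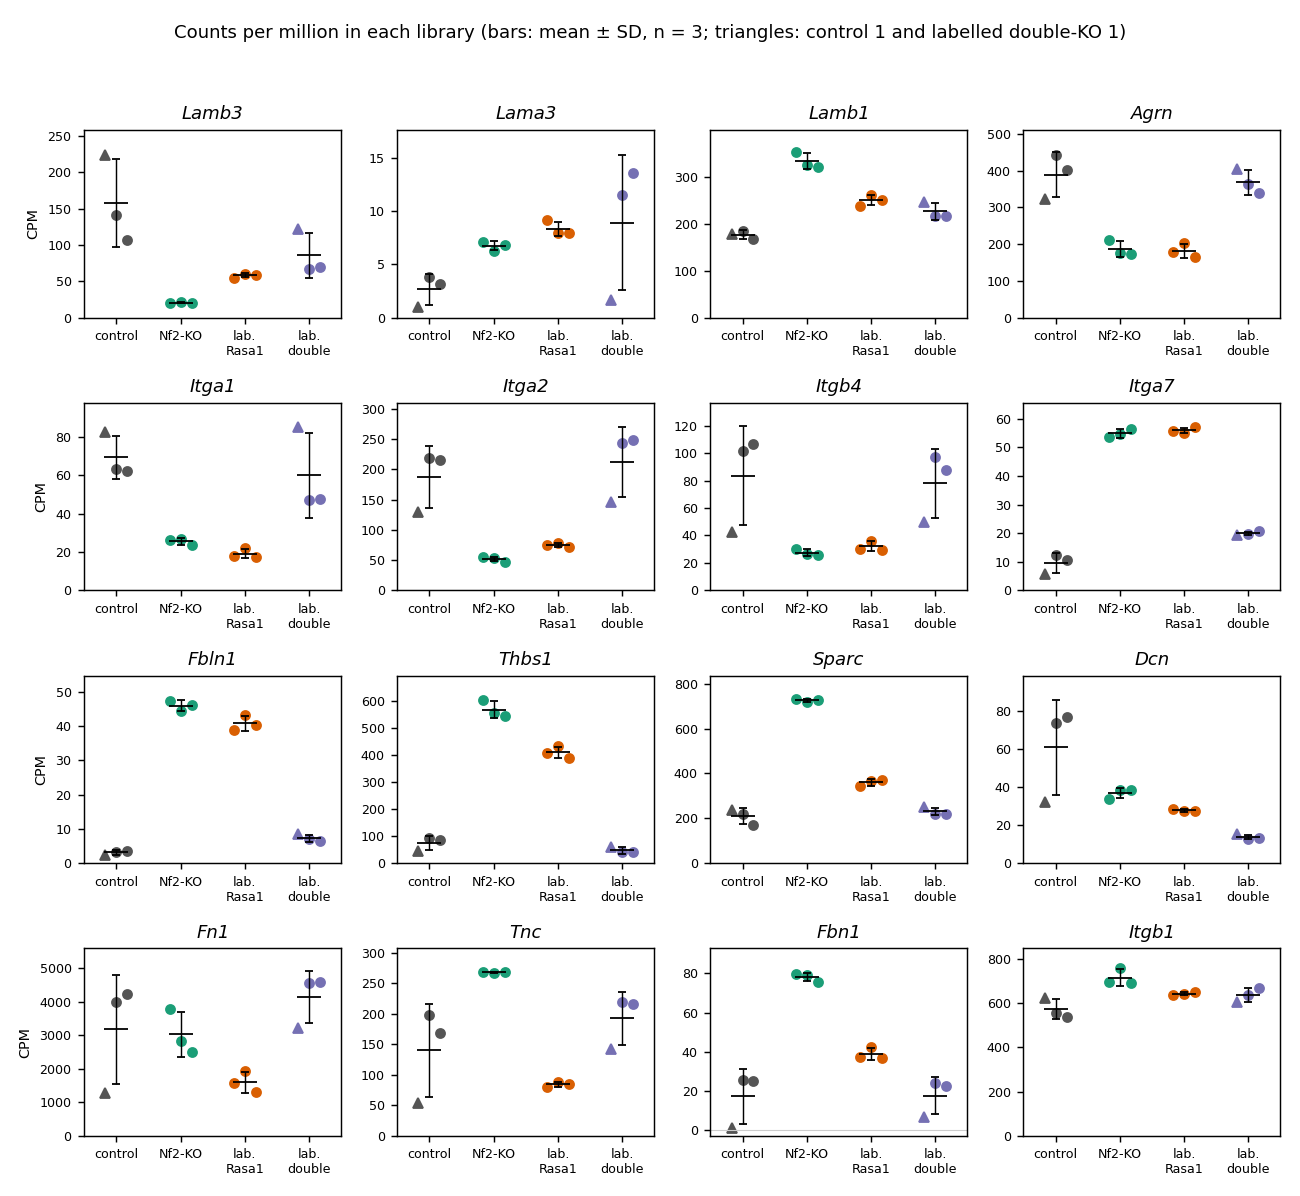
CPM of 16 members (vertical axes that include 0, each with its own scale) in the 3 libraries of each labelled group, with the mean and SD in black and triangles for control 1 and labelled double-KO 1. The triangles lie away from the other libraries of their group in *Fn1*, *Fbn1*, *Tnc* and *Lama3*, and in *Fbln1* and *Itga7* all groups are above control.

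In the libraries labelled double-KO against control, *Itga2b*, *Itga7*, *Lamb1*, *Fbln1* and *Fbln2* rose and *Dcn* fell. *Itga2b* was at 2.56, 4.51 and 3.69 CPM there (0.84 ± 0.20, adjusted p = 0.0274, edgeR), and its call was lost without *Nf2*-KO 2 or labelled double-KO 2 or 3 (adjusted p up to 0.12). That of *Lamb1* was lost without any 1 of 11 libraries, all but control 1 (adjusted p up to 0.109). *Thbs1* and *Thbs2* had -0.66 ± 0.25 and -1.21 ± 0.59, *Lama3* 1.75 ± 0.62 and *Lamb3* -0.87 ± 0.26, none of them called with all 12 libraries. Without control 1 and labelled double-KO 1, 22 members passed, 14 higher and 8 lower, where 17.1% of all genes were higher and 12.8% lower. Among them were *Lama3* (1.84 ± 0.14, adjusted p = 4.64e-06), *Lamb3* (-0.86 ± 0.11, adjusted p = 0.000214), *Thbs1* (-1.16 ± 0.08, adjusted p = 3.28e-06) and *Dcn* (-2.52 ± 0.09, adjusted p = 2.94e-08). Libraries of the same number in the table names deviated together from their group means (correlations of 0.626, 0.313 and 0.444 over the genes). Control 3 and labelled double-KO 2, of unlike numbers in the table names but the same number in the sample titles, did so as well (0.399). Control 2 and labelled double-KO 1, which also share a title number, had -0.379. As the first library of both groups stood apart, correlations of this kind can arise without pairing, so pairing by number is not shown. With the number in the table names as a replicate block and only both groups fitted, 3 members were called (background 1.96%). Among them were *Lamb3* at -0.87 ± 0.15 and *Dcn* at -2.05 ± 0.31. The calls of *Itga2b*, *Itga7*, *Lamb1*, *Fbln1* and *Fbln2* were lost in that fit (adjusted p of 0.151, 0.0645, 0.256, 0.0628 and 0.0693, edgeR). With both groups alone and no block 0 members were called (background 0.102%). In that fit 9 members had an unadjusted p under 0.05, and the share of all genes at that p was not computed. With the replicate block in the fit of all groups 13 were called, 10 higher and 3 lower (background 13.9%).

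Against the libraries labelled *Rasa1*-KO, those labelled double-KO had 26 members called, 13 higher and 13 lower, with a background of 30.3% of all genes. All 3 basement membrane genes of nidogen and proteoglycans were called, *Agrn* and *Hspg2* higher (1.02 ± 0.14 and 1.36 ± 0.30) and *Nid2* lower (-1.27 ± 0.26). Of the laminins 3 of 9 were higher, *Lama4* (1.09 ± 0.19), *Lama5* (0.78 ± 0.17) and *Lamb2* (0.68 ± 0.11), and none was lower by the edgeR test. Of the alpha chains *Itga1*, *Itga2*, *Itga5* and *Itgav* were higher, by 1.66, 1.51, 1.15 and 0.78 on the log2 scale, and *Itga7* (-1.49 ± 0.21) and *Itga2b* (-0.70 ± 0.19) lower. Of the beta chains *Itgb3* (1.52 ± 0.24) and *Itgb4* (1.29 ± 0.32) were higher, and *Itgb2*, *Itgb5*, *Itgb6* and *Itgb7* lower, at -1.54, -0.66, -1.42 and -1.32. The largest differences were in *Thbs1* (-3.13 ± 0.26, adjusted p = 1.12e-05), *Thbs2* (-2.90 ± 0.59) and *Fbln1* (-2.49 ± 0.15, adjusted p = 1.12e-06). *Fbln2*, *Sparc* and *Dcn* were lower too (-0.87, -0.65 and -1.01), and *Fn1* (1.37 ± 0.37) and *Tnc* (1.19 ± 0.36) higher. Calls lost on leaving out 1 library were those of *Fn1* (labelled *Rasa1*-KO 1 or 3, adjusted p up to 0.0686), *Tnc* (any labelled *Rasa1*-KO, or labelled double-KO 2 or 3, up to 0.0852), *Itga5* (labelled *Rasa1*-KO 1 or 3, labelled double-KO 1 or 2, up to 0.09), *Itga2b* (labelled *Rasa1*-KO 1, 0.059) and *Itgb2* (any of the 9 libraries outside control, up to 0.116). Leaving out both libraries that stood apart, 31 members were called, 15 higher and 16 lower, with a background of 50.3%. If both labels are exchanged these values keep their size and change sign.

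The libraries labelled *Rasa1*-KO and the *Nf2*-KO libraries both had a low *Nf2* level, so their difference was tested directly. In the fit of all groups 5 members were called, 1 higher and 4 lower, with a background of 3.66%. *Sparc* was lower by 1.01 ± 0.13 on the log2 scale in labelled *Rasa1*-KO libraries (adjusted p = 0.00144, edgeR), *Tnc* by 1.66 ± 0.36 (adjusted p = 0.0267), *Thbs3* by 0.76 ± 0.16 and *Lamb1* by 0.41 ± 0.09, and *Lamb3* was higher by 1.50 ± 0.27 (adjusted p = 0.0105). The call of *Sparc* was kept without each library in turn. Those of *Tnc*, *Thbs3* and *Lamb3* were lost without an *Nf2*-KO library (the first and second also without a labelled *Rasa1*-KO library), with adjusted p up to 0.125, 0.106 and 0.0621, and that of *Lamb1* without any 1 of 8 libraries, all but the controls and labelled double-KO 1 (up to 0.166). A fit of both groups alone, with its own spread, called 24 members, 7 higher and 17 lower, with a background of 25.8%. There *Tnc* had -1.67 ± 0.05 (adjusted p = 1.14e-07), *Lamb3* 1.50 ± 0.06 (adjusted p = 4.96e-07) and *Sparc* -1.01 ± 0.05 (adjusted p = 1.82e-06). *Fbn1* (-1.02 ± 0.07), *Fn1* (-0.93 ± 0.16), *Thbs2* (-0.96 ± 0.13), *Itgb8* (-0.90 ± 0.14), *Hspg2* (-0.78 ± 0.12), *Nid2* (-0.77 ± 0.19) and *Lama4* (-0.60 ± 0.08) were lower by that fit, and *Itga2* (0.52 ± 0.07) and *Itgb6* (0.40 ± 0.07) higher. Without control 1 and labelled double-KO 1 the fit of all groups called 22, 6 higher and 16 lower, with a background of 19.2%. The summed mesenchymal markers were lower in labelled *Rasa1*-KO libraries, as given above, with 1 of the 5 called in this comparison, and their part in this was not tested.

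As the design has 4 groups, the difference of the libraries labelled double-KO from the sum of both single effects was tested as well. With the labels as given 29 members were called, 13 higher and 16 lower, with a background of 52.4% of all genes. *Fbln1* was lowest against additivity (-6.39 ± 0.22, adjusted p = 2.45e-09, edgeR), then *Thbs1* (-6.07 ± 0.37) and *Thbs2* (-5.53 ± 0.82), and *Lamb3* (3.51 ± 0.38), *Itga2* (3.37 ± 0.32) and *Itga1* (3.10 ± 0.31) were highest. With both labels exchanged 9 members were called, 2 higher and 7 lower, with a background of 6.41%: *Lamb3* (2.38 ± 0.38) and *Dcn* (1.73 ± 0.35) higher, and *Tnc* (-2.12 ± 0.50), *Fbln1* (-1.41 ± 0.21), *Itga2b* (-1.29 ± 0.28), *Fbln2* (-1.27 ± 0.23), *Sparc* (-1.15 ± 0.18), *Thbs3* (-0.98 ± 0.23) and *Lamb1* (-0.77 ± 0.13) lower. The value of *Thbs1* under exchanged labels was 0.19 ± 0.35 (adjusted p = 0.831) and that of *Itga1* -0.21 ± 0.30 (adjusted p = 0.773). Which of both readings holds depends on the labels, which were not tested, and the *Nf2* levels above go with the exchanged ones. The call of *Fn1* with the labels as given (1.44 ± 0.51) was lost without any 1 of 8 libraries, all but control 1, *Nf2*-KO 1, labelled *Rasa1*-KO 2 and labelled double-KO 1 (adjusted p up to 0.0832). Without control 1 and labelled double-KO 1, 35 members were called, 18 higher and 17 lower, with a background of 69.0%.

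By level per length (FPKM, mean over the 12 libraries), *Fn1* was first, followed by *Fbln2*, *Sparc*, *Itgb1*, *Itgav*, *Lama5*, *Itga6*, *Itga3*, *Thbs1* and *Itgb5*, and the order by TPM had the same first 10 genes. The order changed with the group. In control *Fn1* was at 383 ± 208 FPKM (SD, n = 3), *Itgb1* at 130.4 ± 4.08, *Sparc* at 82.8 ± 12.5 and *Fbln2* at 71.8 ± 15.7, so that *Itgb1* was above both of the last. In *Nf2*-KO *Fn1* was at 345 ± 76.6, *Fbln2* at 301 ± 3.47 and *Sparc* at 276 ± 14.2, values that lie within the spread of *Fn1*. In the libraries labelled *Rasa1*-KO *Fbln2* was at 204 ± 6.65 and *Fn1* at 175 ± 34.6, again within that spread. *Thbs1* was at 12.3 ± 4.85 in control and 89.3 ± 5.3 in *Nf2*-KO. *Itgav* (78.3 ± 8.13) and *Lama5* (73.5 ± 19.2) did not differ beyond their spread in control, nor did *Itga6* (47.3 ± 5.42) and *Itga3* (42.8 ± 11.7). *Lamc3*, *Fbln5* and *Fbn2* were last, each with fewer than 10 counts in at least 1 library.

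**Figure D5:**
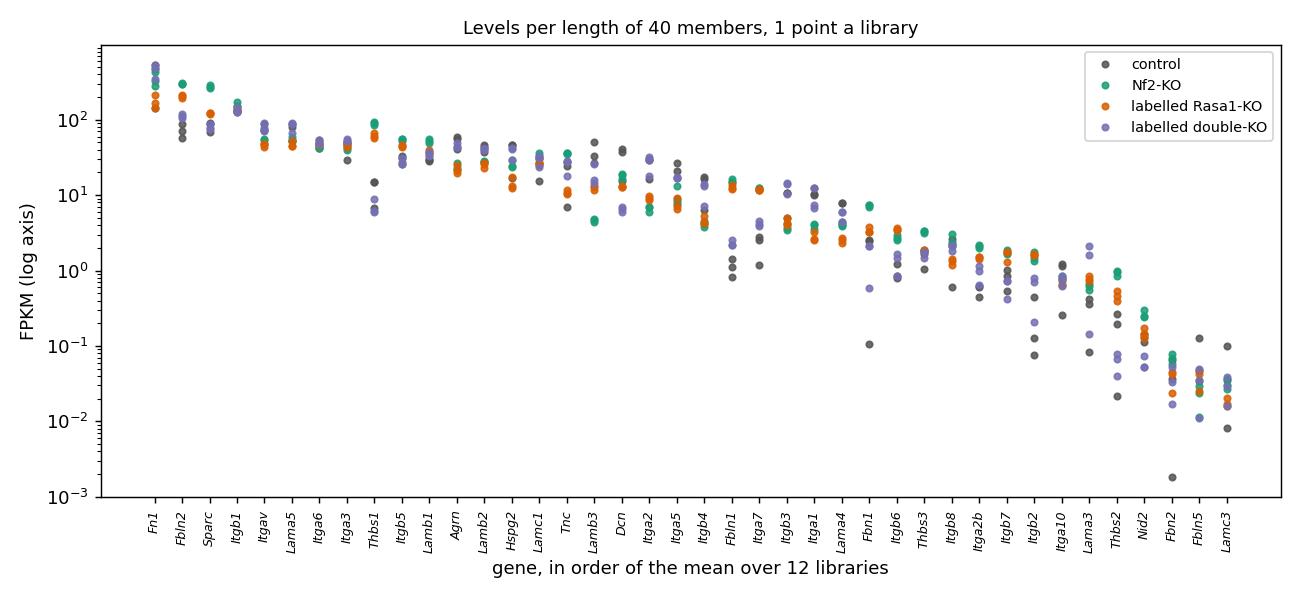
FPKM on a log axis of 40 members, ordered by their mean over the 12 libraries, 1 point a library coloured by labelled group. *Fn1* is first and *Thbs1*, at 12.3 ± 4.85 in control and 89.3 ± 5.3 in *Nf2*-KO (SD, n = 3), spreads widely, while the points of *Itgb1* nearly coincide.

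A further 3 lists of genes around these members were counted as well. The 4 genes named per list are those with the smallest p in *Nf2*-KO or labelled *Rasa1*-KO against control (edgeR), so they do not stand for their list. Of 29 cytoplasmic proteins that link integrins to actin or signal from them, all in the tables, 12 were called in *Nf2*-KO, 6 higher and 6 lower (background 42.8%), with a median log2 fold change of 0.03 against -0.07 over all genes. *Tln2* (a talin) rose by 1.88 ± 0.12, *Nedd9* (an adhesion scaffold) by 1.24 ± 0.11 and *Fermt2* (kindlin-2) by 0.78 ± 0.11, and *Fermt1*, the epithelial kindlin, fell by 1.79 ± 0.18 on the log2 scale (adjusted p = 1.18e-05, edgeR). *Fermt1* was at 177, 118 and 108 CPM in control and 39.3, 39.7 and 37.9 in *Nf2*-KO, so *Fermt1* and *Fermt2* moved in opposite directions. Of 13 other matrix receptors and tetraspanins, 7 were called in *Nf2*-KO, 4 higher and 3 lower: the collagen receptor *Ddr2* rose from 4.49, 13.2 and 14.9 to 126, 119 and 107 CPM (3.44 ± 0.34) and the epithelial collagen receptor *Ddr1* fell by 0.63 ± 0.11. *Bcam*, a receptor of laminin alpha5, fell by 2.32 ± 0.14 and the syndecan *Sdc3* rose by 1.98 ± 0.33. Of 21 other matrix glycoproteins and proteoglycans in the tables (11 more of the list were not analysed here), 14 were called, 8 higher and 6 lower, among them *Efemp1* and *Efemp2* (1.47 ± 0.11 and 1.04 ± 0.10, fibulin relatives) and *Ntn1* (1.57 ± 0.16) higher and *Ltbp2* (-1.91 ± 0.12) lower. The median log2 fold change in *Nf2*-KO was -0.22 in the list of matrix receptors and -0.40 in that of matrix glycoproteins. In labelled *Rasa1*-KO libraries the counts were 5 higher and 6 lower, 3 higher and 3 lower, and 5 higher and 4 lower, in the order of the lists (background 41.9%). In labelled double-KO libraries they were 3 and 0, 0 and 0, and 1 and 2 (background 6.46%).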

How the data were processed

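Total RNA was depleted of ribosomal RNA and sequenced as 12 strand-preserving libraries of S1 tumorspheres. The authors trimmed reads (Trimmomatic 0.38), aligned them to mm10 with HISAT2 2.1.0 and assembled and quantified genes with StringTie 2.1.3b, and they deposited raw counts per gene beside FPKM and TPM values. The strand setting of the counting is not given in the sources used here, and 19 members overlap another gene. Columns of fold changes and p-values in the authors' tables were not used.

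Deposited counts were filtered (filterByExpr), scaled by TMM and fitted in edgeR 4.0.16 (R 4.3.3) with all 12 libraries in 1 quasi-likelihood model, with Benjamini-Hochberg adjustment over 18053 genes and a threshold of 0.05. Values per library are TMM-scaled CPM computed from the deposited counts. Chain shares and levels between genes use the deposited FPKM and TPM, and limma 3.58.1 on log2(FPKM + 1) and DESeq2 1.42.0 on counts were alternatives. Groups follow the sample labels. The members and lists were chosen with earlier results of these data known. Members called in any test and the 10 highest in FPKM are named with values, except 1 member that is counted but not reported here. In counts simulated for *Nf2*-KO against control over 17965 genes, the model called 157 of 200 genes changed 4-fold and 9 others, and 0 genes in a simulated comparison of labelled *Rasa1*-KO with control without change.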

Additional observations from a re-analysis of the deposited data

Results flagged for a closer look

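The double-KO group departed from the sum of both single effects in 29 of the 41 members with the labels as given (52.4% of all genes). With both labels exchanged it did so in 9 (6.41% of all genes). Both counts are from edgeR's quasi-likelihood test of the departure from additivity (Benjamini-Hochberg adjusted p under 0.05). On the log2 scale, *Lamb3* was at 3.51 as given and 2.38 exchanged, *Fbln1* at -6.39 and -1.41, *Fbln2* at -3.01 and -1.27, and *Itga2b* at -2.69 and -1.29. *Sparc* was at -2.44 and -1.15, *Thbs3* at -1.28 and -0.98, and *Lamb1* at -1.06 and -0.77. *Dcn* (1.73) and *Tnc* (-2.12) were called with exchanged labels and not with the labels as given.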

How the results depend on the processing

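Of the 122 calls on single members, 122 kept their direction and their side of the threshold with DESeq2, with RLE size factors and without control 1 and labelled double-KO 1, 119 without the filter on low counts and 115 with limma on log2(FPKM + 1). Leaving out control 1 and labelled double-KO 1 lowers the spread, as given above, so calls kept there are not separate support. The study's rule of 3-fold and raw p, applied to the edgeR fit, kept 50. By itself that rule called 12 members in *Nf2*-KO (11.4% of all genes), 10 in labelled *Rasa1*-KO (9.27%) and 2 in labelled double-KO (2.03%). Of these 2, 1 was among the 6 calls by adjusted p. It called 4 between the last groups (5.66%) and 1 in labelled *Rasa1*-KO against *Nf2*-KO (1.29%). In the departure from additivity it called 22, where its share over all genes was not computed, so that count is not read as a result about the members.

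With both labels exchanged the counts were 6 for *Rasa1*-KO (6.46% of all genes), 28 for double-KO (41.9%) and 9 for the departure from additivity (6.41%). That for *Rasa1*-KO against *Nf2*-KO was 23, and as its share over all genes was not computed, it is not read as a result about the members. Double-KO against *Rasa1*-KO turned sign by construction. The log2 fold changes of *Rasa1*-KO against control that then turned were *Itga2* 0.18, *Itga5* 0.030, *Itgav* 0.046, *Itgb3* 0.67, *Itgb7* -0.20, *Lama5* 0.28, *Lamb2* 0.060, *Fn1* 0.38, *Thbs1* -0.66, *Thbs2* -1.21 and *Hspg2* 0.16. The departures from additivity that turned were *Itga1* -0.21, *Itga5* -0.39, *Itgav* -0.19, *Itgb3* -0.36, *Itgb7* 0.14, *Lama4* -0.41, *Lama5* -0.44, *Lamb2* -0.14, *Fn1* -1.30, *Thbs1* 0.19, *Thbs2* 0.26, *Hspg2* -0.93 and *Nid2* 0.21.

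For labelled double-KO against control, 14 members were called by DESeq2 (11.5% of all genes) and 22 without both libraries that stood apart (29.9%). With only both groups fitted 0 were called (0.102%), and on leaving out 1 library 3 to 14. The fit of only both groups gave 9 members an unadjusted p under 0.05 (edgeR), for which the share of all genes was not computed. For labelled *Rasa1*-KO against *Nf2*-KO, 8 were called by limma on log2(FPKM + 1), 24 with only both groups fitted (25.8% of all genes), 22 without both libraries (19.2%) and 1 to 13 on leaving out 1 library. With the number in the table names as a replicate block these counts were 13 (13.9%) and 12 (8.66%) in the fit of all groups and, chosen after seeing the data, 3 (1.96%) for labelled double-KO against control alone. Pairing by the numbers in the sample titles was not shown either, and as a replicate block they gave 3 and 1. The counts by limma, on leaving out 1 library and with the title numbers have no share of all genes beside them. As that share changes with the fit, these counts are not read as results about the members. The replicate block by table name lost none of the 122 calls in the fit of all groups, while the fit of control and labelled double-KO alone kept 1 of 6. The cause of these changes was not tested. Depth limits *Lamc3*, *Fbln5* and *Fbn2*, with fewer than 10 counts in some library.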
